A study of Mus musculus with 15 samples.

Results

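The immunoglobulin heavy chain variable (Ighv) segments are the gene pieces that encode most of the antigen-binding part of an antibody heavy chain. They were examined here as the 185 genes whose symbol starts with Ighv in the GENCODE vM21 annotation of the mouse genome, out of 45706 genes in the count table. The annotation calls 113 of them V genes, 70 V pseudogenes and 2 a further class of variable-like gene (IG_LV). They lie on chromosome 12 between bases 113572927 and 116010093 of GRCm38, and their exons span 244 to 480 bases with a median of 351. Counts were present in all 15 libraries for 72 segments and in some libraries for 73. The other 40 segments were at 0 throughout and comprised 5 V genes (Ighv2-7, Ighv7-2, Ighv16-1, Ighv6-7 and Ighv1-16), 33 pseudogenes and both IG_LV genes. After the filter on low counts, 103 segments entered the tests (97 V genes and 6 pseudogenes), and these held 99.853% of all Ighv counts.

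A developing B cell cuts and joins the DNA of its heavy chain locus so that 1 V segment sits beside 1 D and 1 J segment. Transcription of a V segment becomes strong once it has been joined, because the promoter before the V segment then lies near the enhancers of the constant region. All progeny of such a cell carry the same joined V segment. Plasma cells, the antibody-secreting end stage of the lineage, transcribe the joined gene far more strongly than earlier B cells, so that a few of them can supply many heavy chain reads.

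RNA was sequenced from lineage-negative bone marrow cells of mice that had received a second, serial transplant of LSK cells, a fraction rich in blood stem cells. The study asked what loss of PUMA, a p53-induced protein that triggers apoptosis, does to blood formation when telomerase is missing. There were 3 libraries of WT donors, 4 of Puma-/- donors, 4 of G3 mTerc-/-Puma+/+ donors (written G3 Puma+/+ from here) and 4 labelled G3 mTerc-/-Puma-/-. mTerc is the RNA part of telomerase, and G3 marks mice of generation 3 without it. The labels do not say that each library came from a separate animal, so p-values measure the spread between these libraries. All recipients were lethally irradiated CD45.1 mice, and both deletions were carried in the germ line of the CD45.2 donors, which were 8 to 12 weeks old. The paper examined secondary recipients that survived to 16 weeks after transplantation, a time it does not repeat for the RNA samples. It reports that fewer recipients of G3 Puma+/+ than of G3 mTerc-/-Puma-/- cells survived, so the groups may differ in which recipients could be sampled. The marrow was depleted with antibodies to CD3ε, CD11b, B220, Ter-119, Gr-1 and NK1.1. B220 marks most B cells but little of it remains on plasma cells. No sort on CD45.2 is described for these RNA samples, so cells of the recipients, which carry both genes, may be present.

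Each library held 102790519 to 158367059 counts, of which 40872 to 324067 fell on Ighv segments. Levels are given as normalized CPM, that is, counts scaled by library size and by a factor for library composition, and a floor of 3 counts in a library corresponded to 0.0189 to 0.0292 CPM. Bbc3, the gene of PUMA, was at 20.7, 9.71 and 23.6 CPM in the WT libraries and at 5.18, 6.83, 5.04 and 5.07 in the Puma-/- libraries. It was at 14.7, 20.8, 20.6 and 11.8 CPM in the G3 Puma+/+ libraries, and at 17.1, 16.1, 15.6 and 13.5 in those labelled G3 mTerc-/-Puma-/-. Bbc3 was thus lower in Puma-/- than in WT libraries (log2 fold change -1.70, SE 0.263, adjusted p = 0.0223, edgeR), and higher in the libraries labelled G3 mTerc-/-Puma-/- than in the Puma-/- libraries (1.502, SE 0.248, adjusted p = 0.0164). The readout of Bbc3 goes against the label of that group, although the table does not show which part of the gene the counts came from. The group is therefore called the labelled double-deficient libraries throughout, and every direction that rests on it rests on the label. Terc was at 0.0356 to 0.158 CPM in the WT and Puma-/- libraries and at 0 to 0.0098 CPM, below the floor, in the other 8.

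Labelled double-deficient replicate 2 stood apart from the other 14 libraries. Its summed plasmacytoid dendritic cell markers reached 137 CPM against 622 to 1202 elsewhere, its erythroid markers 1010 against 17.4 to 166, and its progenitor markers 534 against 775 to 1062. Dntt, the enzyme that adds bases at V(D)J junctions in early lymphoid cells, was at 0.327 CPM there and at 10.9 to 148 in the others. Igha, the IgA constant region, was at 11636 CPM against 499 to 6014. This library was kept in the tests. The main edgeR results over segments and marker lists that rest on its group are given with and without it. DESeq2 and limma-voom were run with all libraries alone. Without replicate 2, Bbc3 in its group was still higher than in Puma-/- (1.48, adjusted p = 0.0345, edgeR). Against G3 Puma+/+ the difference was -0.12 with it (adjusted p = 0.913) and -0.14 without it (adjusted p = 0.986).

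In 15 libraries, 11 different segments held the most Ighv counts. The coding ends of these leading segments are shown because they are the pieces whose reads dominate the data, and because their likeness bears on how well reads can be assigned among them. All lie on the minus strand of chromosome 12 in GRCm38. Ighv7-1 (chr12:113896408-113896946), Ighv9-2 (chr12:114109001-114109430) and Ighv7-3 (chr12:114153180-114153644) were the closest of the 11 to the D segments. Ighv1-4 (chr12:114487136-114487569), Ighv1-9 (chr12:114583569-114584002), Ighv1-15 (chr12:114657353-114657786) and Ighv1-26 (chr12:114788372-114788805) came next. Ighv1-55 (chr12:115208095-115208591), Ighv8-8 (chr12:115294062-115294504), Ighv1-66 (chr12:115593110-115593591) and Ighv1-81 (chr12:115920279-115920712) lay farthest away. The lines give the last 60 bases of each transcript from GENCODE vM21, 5′ to 3′, with the TGT codon of the conserved cysteine that opens the antigen-binding loop CDR3 in capitals.
Ighv7-1: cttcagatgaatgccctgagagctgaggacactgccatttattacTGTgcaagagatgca
Ighv9-2: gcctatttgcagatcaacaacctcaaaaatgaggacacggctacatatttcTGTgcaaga
Ighv7-3: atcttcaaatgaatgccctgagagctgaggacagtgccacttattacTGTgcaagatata
Ighv1-4: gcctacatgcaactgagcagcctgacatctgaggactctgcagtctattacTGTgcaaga
Ighv1-9: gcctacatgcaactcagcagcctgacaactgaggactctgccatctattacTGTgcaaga
Ighv1-15: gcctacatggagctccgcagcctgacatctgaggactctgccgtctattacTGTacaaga
Ighv1-26: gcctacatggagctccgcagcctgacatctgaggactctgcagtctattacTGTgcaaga
Ighv1-55: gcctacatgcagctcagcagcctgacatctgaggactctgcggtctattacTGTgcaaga
Ighv8-8: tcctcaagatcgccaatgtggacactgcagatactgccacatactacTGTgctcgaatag
Ighv1-66: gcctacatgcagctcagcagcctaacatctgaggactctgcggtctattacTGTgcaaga
Ighv1-81: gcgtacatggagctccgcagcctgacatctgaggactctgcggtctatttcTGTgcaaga

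After the cysteine codon, 8 of these segments end within 6 bases, Ighv8-8 and Ighv7-3 within 10 and Ighv7-1 within 12. The rest of CDR3 is supplied by the D and J segments after joining. To show how far 2 leading segments can differ, the last 300 bases of the transcripts of Ighv1-26 and Ighv7-1 are given in full. They matched at 59.2% of aligned positions.
Ighv1-26: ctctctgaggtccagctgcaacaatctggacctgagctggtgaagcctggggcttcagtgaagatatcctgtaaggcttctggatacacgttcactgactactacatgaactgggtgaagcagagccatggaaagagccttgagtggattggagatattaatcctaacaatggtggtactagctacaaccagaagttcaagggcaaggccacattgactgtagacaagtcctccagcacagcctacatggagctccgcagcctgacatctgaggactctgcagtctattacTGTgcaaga
Ighv7-1: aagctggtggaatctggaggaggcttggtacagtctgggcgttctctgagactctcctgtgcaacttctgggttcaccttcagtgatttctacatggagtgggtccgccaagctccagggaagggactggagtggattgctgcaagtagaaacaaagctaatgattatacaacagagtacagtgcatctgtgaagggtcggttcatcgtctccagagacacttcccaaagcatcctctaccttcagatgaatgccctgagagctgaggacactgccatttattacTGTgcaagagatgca

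Within a family the likeness was closer. Over the last 300 bases, Ighv1-15 matched Ighv1-23 at 98.3% of positions, Ighv1-4 matched Ighv1-7 at 97.7% and Ighv1-26 matched Ighv1-18 at 97.3%. The lowest best match among the 11 was that of Ighv7-1 to Ighv7-3, at 87.7%. Of the 113 V genes, 70 shared at least one stretch of 75 bases with another segment, and 0 shared every such stretch. Among the 11 leading segments the shared stretches made up 26.4% of the 75-base windows in Ighv1-4, 20.2% in Ighv1-55, 17.3% in Ighv8-8 and 16.2% in Ighv1-26. For Ighv7-1, Ighv1-9, Ighv7-3 and Ighv1-81 they made up 0%. A read pair that lies wholly within shared sequence cannot be placed on 1 segment, so the counts of closely related segments may be uncertain. How many reads were affected was not tested. A joined V segment can also carry somatic mutations that hinder its alignment, and how many reads were lost in that way was not tested.

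The total Ighv level was lowest in the G3 Puma+/+ libraries. Summed over the 185 segments it was 1291, 1556 and 1444 CPM in WT libraries and 1078, 1513, 1069 and 1137 in Puma-/- libraries. In G3 Puma+/+ libraries it was 300.3, 1059, 349.8 and 578.6 CPM, and in the labelled double-deficient libraries it was 837.2, 2789, 947.2 and 576.6. All 4 G3 Puma+/+ libraries lay below every WT and Puma-/- library, although the highest of them, 1059 CPM, nearly reached the lowest Puma-/- library at 1069. The labelled double-deficient libraries overlapped all 3 other groups and included both the highest library of the study and 1 at the level of G3 Puma+/+ replicate 4. Without replicate 2 they lay at 576.6 to 947.2 CPM, below every WT and Puma-/- library, and overlapped the G3 Puma+/+ libraries alone.

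Group medians of the total were 1444 CPM in WT, 1108 in Puma-/-, 464.2 in G3 Puma+/+ and 892.2 in the labelled double-deficient libraries (837.2 without replicate 2). The WT median was 3.11-fold and the Puma-/- median 2.39-fold the G3 Puma+/+ median. Leaving out 1 library at a time moved these ratios between 2.5 and 4.13 and between 1.91 and 3.17. The labelled double-deficient median was 1.92-fold the G3 Puma+/+ median, with a range of 1.54 to 2.55 on leaving out single libraries and 1.8 without its replicate 2. As means ± SD, totals were 1430 ± 133 CPM in WT (n = 3), 1199 ± 211.3 in Puma-/- (n = 4), 571.9 ± 346.6 in G3 Puma+/+ (n = 4) and 1288 ± 1013 in the labelled double-deficient libraries (n = 4). Without replicate 2 the labelled double-deficient mean was 787 ± 190.3 CPM (n = 3), below the Puma-/- mean. These totals are sums over the chosen segments and carry no test. In bulk RNA, fewer antibody-producing cells and less heavy chain RNA per cell cannot be told apart.

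**Figure D1:**
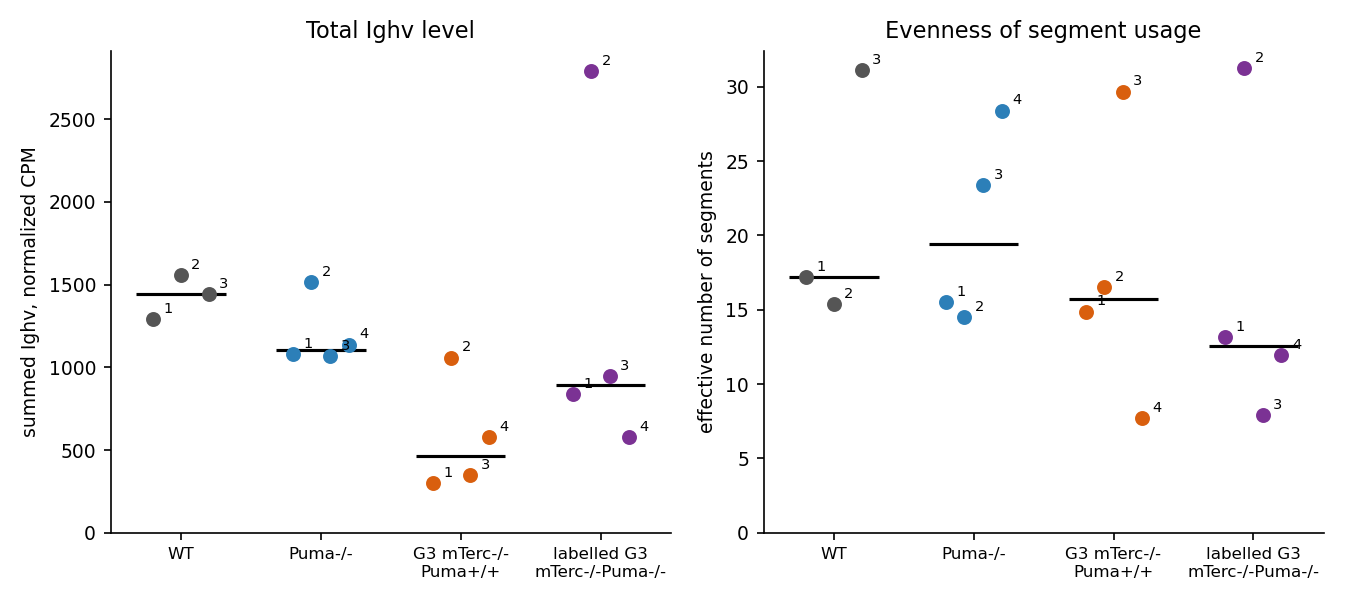
Left, summed normalized CPM of the 185 Ighv segments in each library. Right, the effective number of segments in each library (the inverse Simpson index). Points are libraries numbered by replicate and horizontal lines are group medians. The G3 Puma+/+ libraries lie between 300.3 and 1059 CPM, below all WT and Puma-/- libraries, while the effective numbers of all 4 groups overlap. Without labelled double-deficient replicate 2, at 31.2, that group lies below the WT and Puma-/- libraries in effective number.

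A few segments held much of each library's Ighv counts, and they differed from library to library within every genotype. In WT libraries the leading segment was Ighv1-66 with 17.6% of Ighv counts in replicate 1, Ighv9-2 with 17.0% in replicate 2 and Ighv7-1 with 7.74% in replicate 3. In Puma-/- libraries it was Ighv8-8 (17.2%), Ighv1-26 (21.0%), Ighv1-9 (13.7%) and Ighv1-4 (9.61%) in replicates 1 to 4. In G3 Puma+/+ libraries it was Ighv1-26 (18.0%), Ighv1-55 (18.3%), Ighv7-3 (10.01%) and Ighv1-15 (31.3%). In the labelled double-deficient libraries it was Ighv1-26 (18.0%), Ighv7-1 (7.93%), Ighv1-26 (30.0%) and Ighv1-81 (25.6%). No genotype had 1 leading segment in all its libraries. The 95% Wilson intervals of these shares were at most 0.74 percentage points wide. They treat reads as independent draws, and since reads are not independent molecules they may be too narrow even for counting error. They do not cover the spread between libraries. The leading segment was the same in all 15 libraries when counts were divided by exon length.

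**Figure D2:**
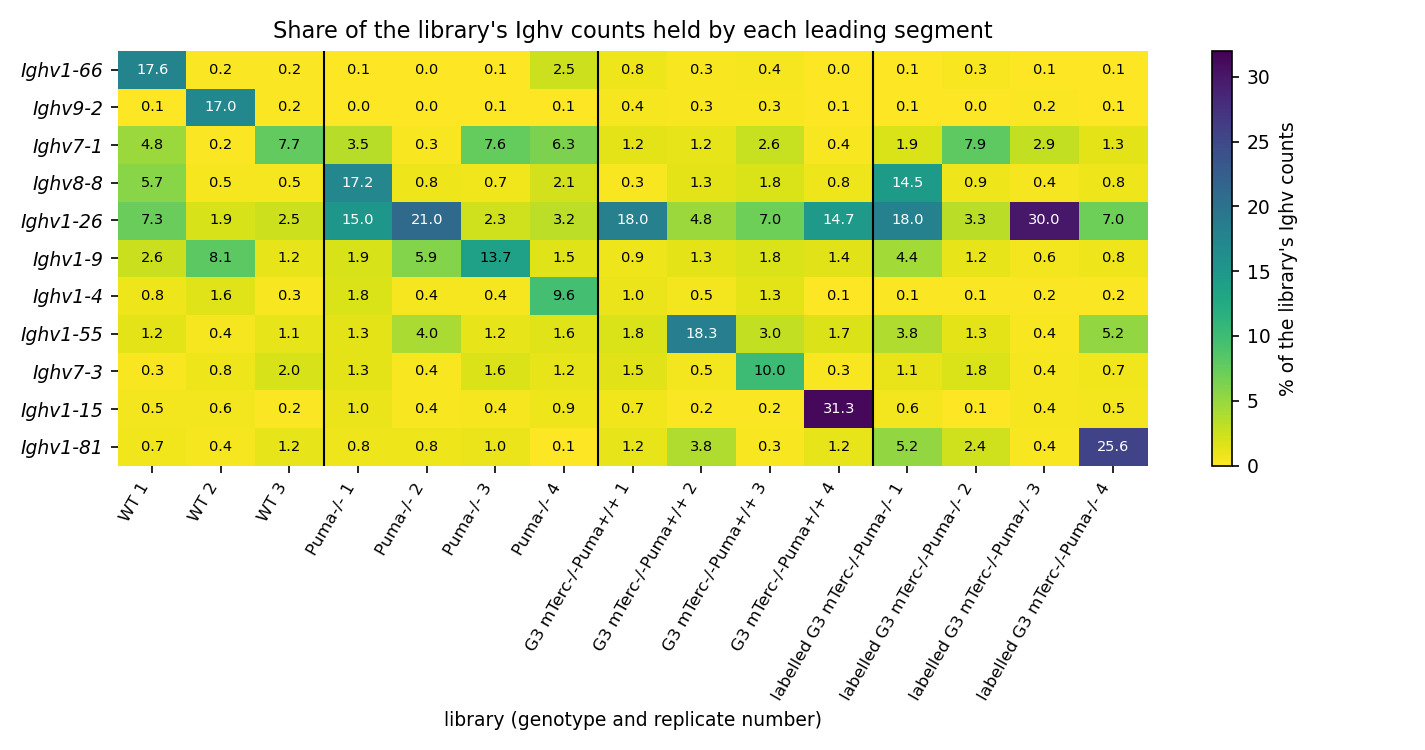
Share of each library's Ighv counts, in percent, held by the 11 segments that lead at least 1 library. Rows are segments, columns are libraries grouped by genotype, and the number in each cell is the share. Most rows have 1 dark cell, such as Ighv9-2 in WT replicate 2 (17.0%) and Ighv1-15 in G3 Puma+/+ replicate 4 (31.3%), whereas Ighv1-26 leads 4 libraries from 3 genotypes.

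Of the 11 leading segments, 9 led 1 library each. Ighv9-2 was at 264.8 CPM in WT replicate 2 and at most 3.49 CPM in the other 14 libraries, a 75.8-fold gap to the next library. Its share elsewhere did not exceed 0.416%. Ighv1-15 was at 181.1 CPM in G3 Puma+/+ replicate 4 and at most 10.5 CPM elsewhere. Ighv1-66 was at 227.6 CPM in WT replicate 1, at 28.3 CPM in Puma-/- replicate 4 and at 0.252 to 9.3 CPM in the rest. Each of these segments was thus high in 1 library and low in the others of the same genotype. Ighv8-8 came closest to a second lead, since it held 17.2% of Ighv counts in Puma-/- replicate 1 and 14.5% in labelled double-deficient replicate 1.

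Ighv1-26 had the highest mean level of all segments and led 4 libraries. It was at 93.9, 29.2 and 35.9 CPM in WT libraries and at 161.7, 317.4, 24.1 and 36.6 in Puma-/- libraries. It was at 54.1, 51.2, 24.5 and 85.1 CPM in G3 Puma+/+ libraries and at 150.4, 93.1, 283.9 and 40.5 in the labelled double-deficient libraries. All 4 groups overlapped. In edgeR's quasi-likelihood test its log2 fold change was 0.02 (SE 0.799) in G3 Puma+/+ against WT and 1.40 (SE 0.753) in the labelled double-deficient against the G3 Puma+/+ libraries, with adjusted p of 1 and 0.559. Without labelled double-deficient replicate 2 the latter was 1.56 (adjusted p = 0.830, edgeR). Its mean was 53.7 ± 24.8 CPM (SD, n = 4) in G3 Puma+/+ and 53.0 ± 35.6 (n = 3) in WT libraries, against 135 ± 137 (n = 4) in Puma-/- and 142 ± 105 (n = 4) in the labelled double-deficient libraries.

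Ighv7-1 led WT replicate 3 and labelled double-deficient replicate 2. It was at 61.7, 2.8 and 111.8 CPM in WT, at 37.3, 3.84, 80.8 and 71.7 in Puma-/-, at 3.76, 12.9, 9.2 and 2.04 in G3 Puma+/+ and at 15.6, 221.2, 27.7 and 7.41 in the labelled double-deficient libraries. The WT and Puma-/- groups each had 1 library as low as the G3 Puma+/+ libraries, so the groups overlapped. Its log2 fold change in G3 Puma+/+ against WT was -3.08 (SE 1.26, adjusted p = 1, edgeR), and against Puma-/- it was -2.80 (SE 1.20, adjusted p = 0.361).

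Ighv1-53, Ighv9-3, Ighv1-9, Ighv6-3, Ighv8-8, Ighv3-6, Ighv11-2 and Ighv1-55 completed the 10 segments with the highest mean over the 4 genotypes. Ighv9-3 was at 19.8, 98.5 and 70.2 CPM in WT, at 40.9, 57.7, 31.6 and 57.8 in Puma-/- and at 5.97, 20.5, 12.3 and 14.5 in G3 Puma+/+ libraries. It was at 74.4, 53.2, 11.3 and 20.4 CPM in the labelled double-deficient libraries. Every Puma-/- library exceeded every G3 Puma+/+ library, but 1 WT library did not. Ighv1-9 was at 33.7, 125.7 and 17.1 CPM in WT, at 20.5, 89.4, 146.3 and 17.6 in Puma-/-, at 2.58, 13.7, 6.23 and 8.35 in G3 Puma+/+ and at 36.8, 34.0, 5.55 and 4.81 in the labelled double-deficient libraries. The G3 Puma+/+ libraries lay below all WT and all Puma-/- libraries for this segment.

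Ighv3-6 was at 34.0, 75.5 and 24.7 CPM in WT, at 11.2, 43.1, 14.02 and 81.2 in Puma-/-, at 4.03, 12.3, 5.45 and 2.63 in G3 Puma+/+ and at 5.89, 118.5, 32.7 and 10.2 in the labelled double-deficient libraries. Ighv11-2, a segment often used by B-1 cells, had the smallest ratio of highest to median library among the 10, at 1.82. It was at 42.3, 19.8 and 54.4 CPM in WT, at 23.1, 51.2, 38.7 and 45.1 in Puma-/-, at 2.41, 31.1, 10.3 and 19.1 in G3 Puma+/+ and at 20.2, 56.6, 37.4 and 21.7 in the labelled double-deficient libraries. Its 4 groups overlapped. Ighv1-55 was at 194.2 CPM in G3 Puma+/+ replicate 2 and 5.47 to 10.4 in the other 3 of that group. The remaining 3 segments of the 10, Ighv1-53, Ighv6-3 and Ighv8-8, spread widely within the WT libraries alone (14.01 to 131.9, 4.83 to 99.7 and 6.82 to 73.1 CPM).

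With all libraries the evenness of usage overlapped between the 4 genotypes, an overlap that for the labelled double-deficient group with WT and Puma-/- rested on its replicate 2. The effective number of segments, the number of equally used segments that would give the same concentration of counts, was 17.2, 15.4 and 31.1 in WT and 15.5, 14.5, 23.4 and 28.4 in Puma-/- libraries. It was 14.9, 16.5, 29.7 and 7.7 in G3 Puma+/+ and 13.2, 31.2, 7.93 and 11.9 in the labelled double-deficient libraries. Without replicate 2 the labelled double-deficient libraries lay at 7.93 to 13.2, below every WT and Puma-/- library and within the range of the G3 Puma+/+ libraries. The top 5 segments held 28.5% to 61.6% of Ighv counts, and the median was 43.1% for WT, 39.8% for Puma-/-, 46.0% for G3 Puma+/+ and 48.5% for the labelled double-deficient libraries (51.8% without replicate 2). Between 102 and 122 segments had at least 1 count in a library. When every library was thinned to the 40872 Ighv counts of the lowest, the leading segment stayed the same in all 15 and 98 to 114 segments kept a count.

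Libraries of 1 genotype had about the same overlap of usage as libraries of different genotypes. The overlap of 2 libraries, the sum over segments of the smaller of the 2 shares, ran from 35.1% to 57.3% with a median of 45.9% in the 21 pairs within a genotype. In the 84 pairs of different genotypes it ran from 28.5% to 63.5% with a median of 46.8%. Pairs share libraries, so these values are a description.

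By family, Ighv1 (93 segments, 55 of them tested), the large J558 family that fills the part of the locus far from the D segments, held 37% to 75.8% of Ighv counts with a median of 53.9%. It was at 54.5%, 37.0% and 45.5% in WT, at 53.9%, 71.2%, 52.1% and 46.6% in Puma-/-, at 72.9%, 73.0%, 45.9% and 75.8% in G3 Puma+/+ and at 50.2%, 43.4%, 68.4% and 65.2% in the labelled double-deficient libraries. In 3 of the 4 G3 Puma+/+ libraries this family thus held over 70%, and the fourth overlapped the WT range. Ighv9 held 32% in WT replicate 2 and 1.88% to 9.19% elsewhere, and Ighv9-2 alone made up 17.0% there. Ighv8 held 19.8% in Puma-/- replicate 1 and 15.1% in labelled double-deficient replicate 1, where Ighv8-8 was high. Ighv7 peaked at 12.7% in G3 Puma+/+ replicate 3 and 12.4% in labelled double-deficient replicate 2.

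**Figure D3:**
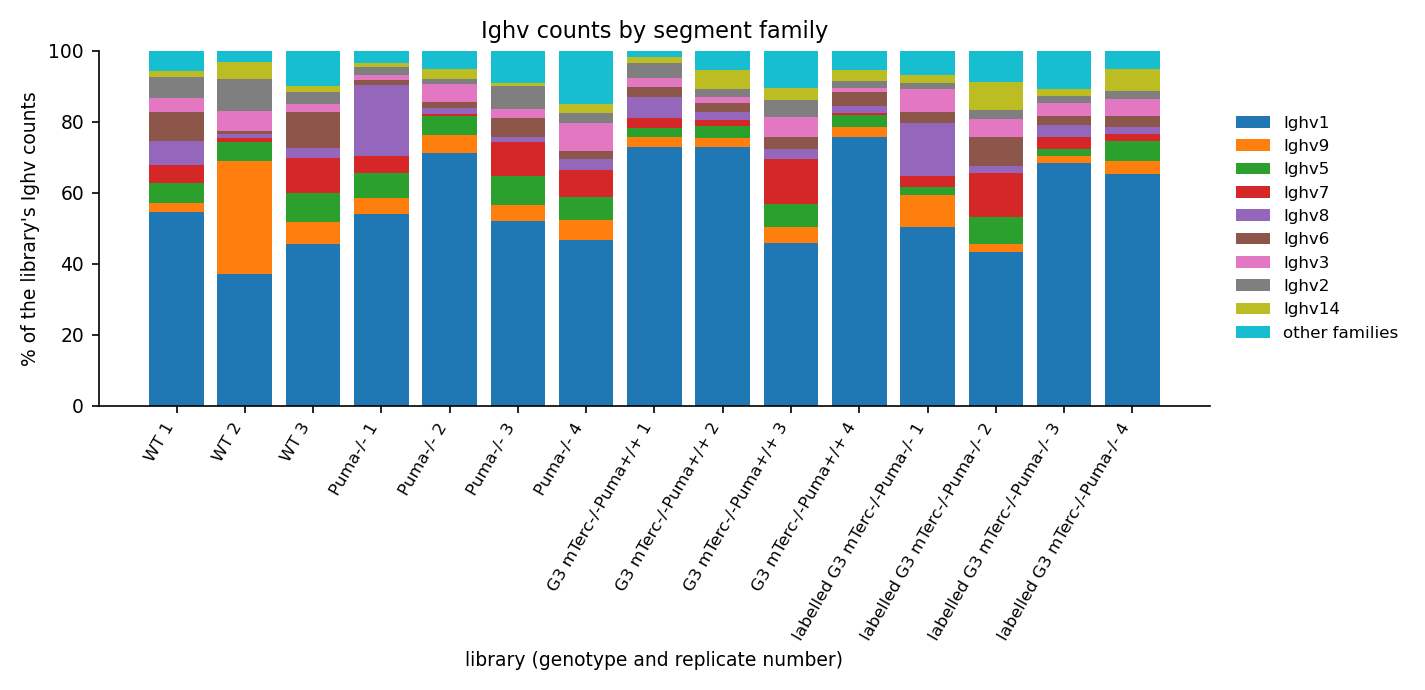
Stacked bars give the percentage of each library's Ighv counts that fell on each segment family, with the 9 families of highest mean share in colour and the others pooled. Ighv1 is the largest block in every library, from 37% in WT replicate 2 to 75.8% in G3 Puma+/+ replicate 4, and Ighv9 reaches 32% in WT replicate 2 alone.

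By position, the 62 segments nearest to the D segments held 17.1% to 59.3% of Ighv counts (median 27.6%), the 62 in the middle 21.2% to 61.7% (median 33.6%) and the 61 farthest 19.5% to 51% (median 34.5%). The group median of the nearest set was 35.0% in WT, 29.4% in Puma-/-, 18.5% in G3 Puma+/+ and 25.1% in the labelled double-deficient libraries (22.6% without replicate 2). The group ranges overlapped, since the highest G3 Puma+/+ library reached 38.9%. Pseudogenes held 0.0622% to 0.144% of Ighv counts in WT and 0.247% to 0.398% in G3 Puma+/+ libraries, ranges that did not overlap. The Puma-/- and labelled double-deficient libraries lay between 0.0818% and 0.282%. No test was made of these shares.

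Across all 103 tested segments the typical spread between libraries was large. The highest library exceeded the median library 10.5-fold in the median segment, and 84 of the 103 had a highest library at least 5-fold above the median library. In 10 segments the highest library stood at least 5-fold above the second. Labelled double-deficient replicate 2 was the highest library for 36 segments, and G3 Puma+/+ replicates 1 and 3 for 0. By the ratio of highest to median library the least variable segment was the pseudogene Ighv1-41, at 0.231 to 0.935 CPM over 15 libraries and a ratio of 1.51. Ighv1-75 followed, at 1.95 to 9.41 CPM and a ratio of 1.78.

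No Ighv segment passed an adjusted p of 0.05 in edgeR in any of the 6 comparisons between genotypes, where p-values were adjusted over all 19146 genes tested. The values that follow therefore describe the direction of the segments as a set of counts, beside the same over all genes. DESeq2 gave an adjusted p to 89 to 93 of the 103 tested segments, depending on the comparison, and its calls are out of those. limma-voom called 0.0104% to 0.292% of all genes over the 6 comparisons. The comparisons share libraries and are not independent of each other. All 6 refer to the log2 fold change of single segments.

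In G3 Puma+/+ against WT, the comparison that removes mTerc while Puma is intact, 82 of the 103 segments had a negative log2 fold change, with a median of -1.25 against 0.02 over all genes. edgeR called 0 segments, where it called 0.0209% of all genes. At an unadjusted p under 0.05, 24 segments (23.3%) passed, 22 of them lower, where 2.48% of all genes passed. limma-voom called 0 segments and had 16 unadjusted (15.5%, against 2.24% of all genes). DESeq2 called 1, Ighv9-1, which was lower (0.131% of all genes with an adjusted p), and had 25 unadjusted (24.3% against 2.81%). Leaving out single libraries moved the segment median between -1.95 (without G3 Puma+/+ replicate 2) and -0.73 (without WT replicate 3). The lowest adjusted p, that of Ighv9-1, was 0.752 in edgeR.

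G3 Puma+/+ against Puma-/- gave a median of -1.28 (0.00 over all genes), with 24 segments (23 lower) at an unadjusted p under 0.05, where 12.6% of all genes passed. edgeR called 0 segments and 0.125% of all genes. limma-voom called 0 and had 18 unadjusted (17.5%, against 12% of all genes). DESeq2 called 7 (2.39% of all genes with an adjusted p), of which 6 were lower, and had 25 unadjusted (24.3% against 13.7%). The 7 were Ighv1-2, Ighv1-4, Ighv1-9, Ighv1-11, Ighv1-47, Ighv9-4 and Ighv15-2. The lowest adjusted p in edgeR was 0.152 for Ighv1-47. On leaving out single libraries the median lay between -1.79 and -1.11.

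In Puma-/- against WT, the loss of Puma with telomerase intact, the segments were spread around no change. Their median was 0.19, and 59 segments lay above 0 and 44 below. edgeR called 0 segments and 0.0679% of all genes. Unadjusted, 10 segments passed (3 higher and 7 lower), 9.71% against 6.1% of all genes. DESeq2 called 0 (0.3% of all genes with an adjusted p) and limma-voom 0 (0.047% of all genes). Unadjusted, DESeq2 had 9 (8.74% against 6.99% of all genes) and limma-voom 5 (4.85% against 5.66%), so a share above that of all genes was not seen with every tool. Leaving out single libraries moved the median between -0.13 (without Puma-/- replicate 2) and 0.54 (without WT replicate 3). The lowest adjusted p was 0.364, for Ighv9-2, at 1.47, 264.8 and 2.68 CPM in WT and 0.109 to 0.792 in Puma-/- libraries.

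The labelled double-deficient libraries against the G3 Puma+/+ libraries, the comparison by label of Puma loss without telomerase, gave a median of 1.25 with 77 segments above 0. edgeR called 0 segments and 0.0313% of all genes. Unadjusted, 24 segments (21 higher) passed, 23.3% against 10.2% of all genes. limma-voom called 0 (0.0104% of all genes) and DESeq2 0 (1.66% of all genes with an adjusted p). DESeq2 had 29 unadjusted (28.2% against 11.2% of all genes), whereas limma-voom had 7 (6.8% against 7.66%), no more than its share over all genes. Without labelled double-deficient replicate 2 the median was 0.09 and 15 segments passed unadjusted (14.6% against 6.22% of all genes), whereas without G3 Puma+/+ replicate 2 the median was 1.83.

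The labelled double-deficient libraries against the Puma-/- libraries gave a median of 0.02, with 11 segments unadjusted (3 higher and 8 lower), against 7.48% of all genes. edgeR called 0 segments and 0.308% of all genes. DESeq2 called 1, Ighv1-4 (1.35% of all genes with an adjusted p), with 13 unadjusted (12.6% against 8.46% of all genes), and limma-voom 0, with 10 unadjusted (9.71% against 7.23%). Without replicate 2 the median was -1.20 and 23 segments passed unadjusted (22.3% against 8.42%). Against WT, the labelled double-deficient libraries gave a median of 0.13 and 13 segments unadjusted (2 higher and 11 lower), where 8.8% of all genes passed. edgeR called 0 segments and 0.0418% of all genes. DESeq2 called 3, Ighv1-56, Ighv2-9 and Ighv9-1, all lower (1.15% of all genes with an adjusted p), with 14 unadjusted (13.6% against 10.1% of all genes), and limma-voom 0, with 13 unadjusted (12.6% against 6.43%). Without replicate 2 the median there was -1.06 and 24 segments passed unadjusted (23.3% against 5.45%). With all libraries the median segment was near 0 in both comparisons by edgeR and DESeq2, but -0.56 and -0.54 by limma-voom, and by edgeR it was below 0 in both without that library.

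**Figure D4:**
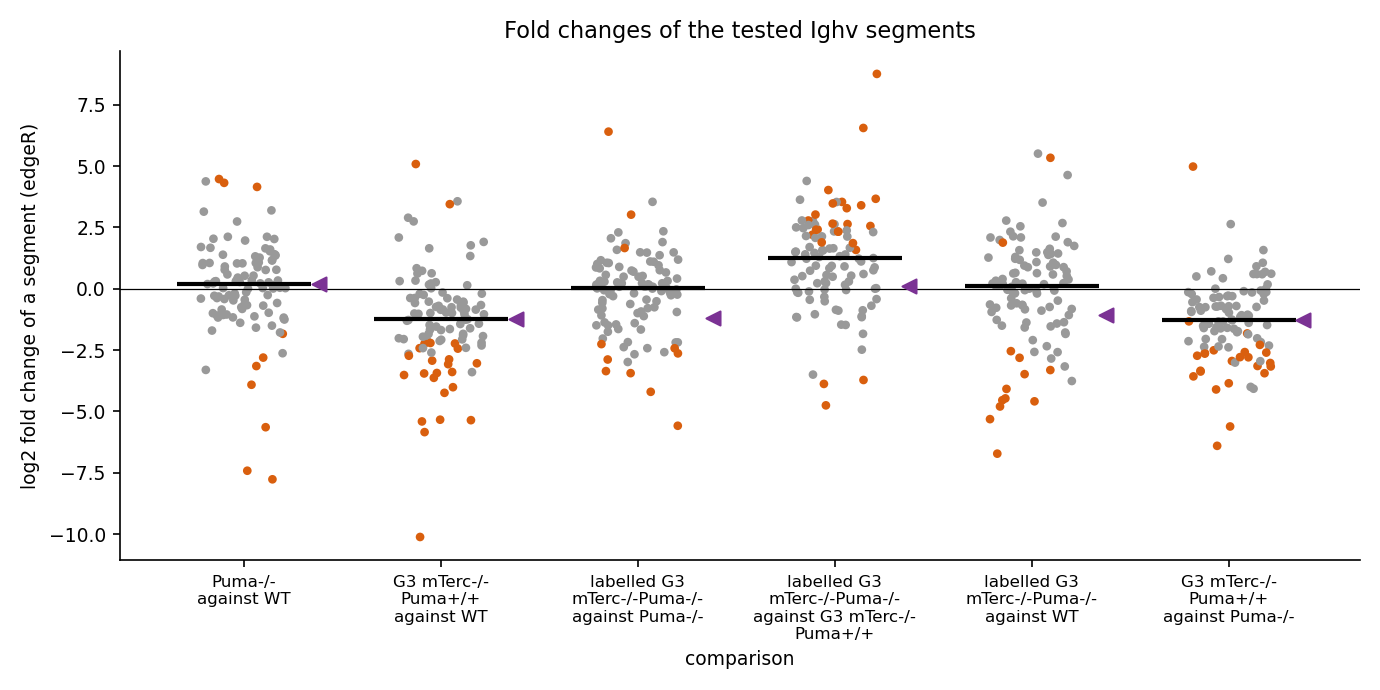
Each point is 1 of 103 tested Ighv segments, with its log2 fold change from edgeR in 6 comparisons. Orange points had an unadjusted p under 0.05, 0 segments passed after adjustment over all genes, black lines are medians over segments, and purple triangles are the medians without labelled double-deficient replicate 2. The medians lie at -1.25 and -1.28 for G3 Puma+/+ against WT and against Puma-/-, and the triangle departs from the line in the 3 comparisons that use the labelled double-deficient libraries.

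The interaction of the 2 genotypes, the difference of the Puma contrast with and without telomerase by label, was called for 9 of all genes and for 0 segments. Unadjusted, 12 segments (11.7%) passed in edgeR, against 3.18% of all genes, and the median was 1.27. Without labelled double-deficient replicate 2 these values were 9 segments (8.74%), against 4.93% of all genes, and a median of 0.20. DESeq2 and limma-voom were not run on this term.

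The segments with the smallest unadjusted p in the comparisons that use the labelled double-deficient libraries were chosen for those values, which are therefore a description. Ighv1-4 was at 18.9, 6.08, 4.38 and 109.3 CPM in Puma-/- and at 1.25, 3.68, 1.65 and 0.965 in the labelled double-deficient libraries, 2 ranges that did not overlap. Its log2 fold change was -4.20 (SE 1.02, adjusted p = 0.152 in edgeR and 0.0014 in DESeq2, with a range of 0.0014 to 0.509 over the alternatives), and -2.38 without Puma-/- replicate 4, its highest library, and -4.75 without labelled double-deficient replicate 2. Ighv8-5 was at 20, 2.61, 2.47 and 2.66 CPM in Puma-/- and at 0.611, 0.0344, 1.53 and 0.384 in the labelled double-deficient libraries, and Ighv2-4 at 0 to 1.22 and 0 to 0.0314. Ighv1-72 was at 6.85, 9.91, 7.38 and 19.9 CPM in G3 Puma+/+ and at 5.3, 87.7, 129.7 and 11.0 in the labelled double-deficient libraries (2.41, SE 0.779, adjusted p = 0.314, and 1.66 without labelled double-deficient replicate 3). Ighv3-6 (2.78, SE 0.907, adjusted p = 0.319) and Ighv5-12 (3.54, SE 1.21, adjusted p = 0.335) were the others of that comparison. Without replicate 2 the log2 fold changes of Ighv1-72, Ighv3-6 and Ighv5-12 were 2.145, 1.42 and 2.95, with adjusted p of 0.629, 0.834 and 0.695 in edgeR.

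For 20 named segments an exact two-sided permutation test on mean CPM was made in each comparison, 120 tests in all. With 4 libraries against 4 the smallest p it allows is 0.0286, and with 3 against 4 it is 0.0571, so tests with WT could not reach 0.05. Several of these segments were named for their values, Ighv1-4 and Ighv8-5 for a small p in the labelled double-deficient against Puma-/- comparison itself, so the counts are a description. Of 60 tests of 4 against 4 libraries, 5 gave the smallest value. They were Ighv9-3, Ighv1-9 and Ighv8-5, lower in G3 Puma+/+ than in Puma-/-, and Ighv1-4 and Ighv8-5, lower in the labelled double-deficient libraries than in Puma-/-. Of 60 tests with WT, 4 gave the smallest value, Ighv1-9 and Ighv3-6 (lower in G3 Puma+/+), Ighv9-2 (lower in Puma-/-) and Ighv1-4 (lower in the labelled double-deficient libraries). None was adjusted for the number of tests, and the exact test was not made over all genes. With no share of all genes beside them, these counts are no result about the segments. Without replicate 2, tests of the labelled double-deficient group would be of 3 against 4 libraries or fewer and could not reach 0.05.

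Joined V segments are spliced to the constant regions, and Ighm and Igha are given by library here. Ighm, the constant region of IgM, was at 4739, 7740 and 1977 CPM in WT, at 4143, 2852, 3187 and 5033 in Puma-/-, at 529.7, 1116, 811.9 and 1351 in G3 Puma+/+ and at 4767, 1532, 1466 and 1222 in the labelled double-deficient libraries. Every G3 Puma+/+ library lay below every WT and Puma-/- library, yet the test did not pass (log2 fold change -2.34, adjusted p = 0.733 against WT, and -1.998, SE 0.484, adjusted p = 0.125 against Puma-/-, edgeR). Igha was at 2577, 2856 and 4875 CPM in WT, at 2737, 5944, 3621 and 2196 in Puma-/-, at 1532, 6014, 1148 and 2047 in G3 Puma+/+ and at 499.2, 11636, 5503 and 3086 in the labelled double-deficient libraries. Igha overlapped in all groups. Per exon length, Ighm made up a median of 66.6% of the constant region signal in WT, 59.5% in Puma-/-, 39.3% in G3 Puma+/+ and 30.7% in the labelled double-deficient libraries, and Igha 25.6%, 36.7%, 57.8% and 66.5%. The labelled double-deficient medians were 34.4% and 61.5% without replicate 2. Over 15 libraries the Ighm share ran from 15.5% to 90.3%. Of the 8 heavy chain constant genes 0 were called in edgeR, where 0.0209% to 0.308% of all genes were called over the 6 comparisons. At that share, 0 calls in a list of this size is no result about them. In G3 Puma+/+ against WT all 8 were lower, 4 of them at an unadjusted p under 0.05 (2.48% of all genes), with a median of -1.76 on the log2 scale. Against Puma-/- all 8 were lower, 5 of them unadjusted (12.6% of all genes), with a median of -1.81.

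Light chain genes are rearranged at other loci, after the heavy chain. The 160 kappa V segments included 94 that were tested. Their median on the log2 scale was -1.37 in G3 Puma+/+ against WT and -1.49 against Puma-/-. At an unadjusted p under 0.05, 21 were lower and 1 higher against WT (2.48% of all genes). Against Puma-/- 25 were lower and 1 higher (12.6% of all genes). In the labelled double-deficient against the G3 Puma+/+ libraries their median was 1.34, or 0.59 without replicate 2. There 24 were higher and 0 lower unadjusted (10.2% of all genes), and 14 higher and 8 lower without replicate 2 (6.22%). edgeR called 1, Igkv12-44, in G3 Puma+/+ against Puma-/- (-3.55, adjusted p = 0.0381, range over the alternatives 8.36e-07 to 0.133), where 0.125% of all genes were called. This call was kept in 4 of the 15 fits that each left out 1 library. Igkv12-44 was at 75.3, 94.4, 35.7 and 100.8 CPM in Puma-/- and at 4.04, 7.72, 10.6 and 3.67 in G3 Puma+/+ libraries. Igkc, the kappa constant region, was at 4688, 7594 and 4340 CPM in WT, at 5000, 6579, 5157 and 5300 in Puma-/-, at 1066, 3135, 1087 and 2173 in G3 Puma+/+ and at 3244, 7388, 5181 and 2778 in the labelled double-deficient libraries. All G3 Puma+/+ libraries lay below all WT and Puma-/- libraries, and the test against Puma-/- gave -1.56 (SE 0.373, adjusted p = 0.122).

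The total Ighv level was set beside plasma cell genes and early B cell genes in each library. Jchain, which links IgA and IgM into multimers in plasma cells, was at 923.9, 1315 and 851.3 CPM in WT, at 802.6, 1227, 911.8 and 954.2 in Puma-/-, at 228.1, 943.7, 240.1 and 514 in G3 Puma+/+ and at 546.3, 1884, 1127 and 515.1 in the labelled double-deficient libraries. The ratio of total Ighv to Jchain ran from 0.84 to 1.7 over the 15 libraries, a 2.02-fold span, while Jchain itself spanned 8.26-fold and total Ighv 9.29-fold. The ratio to Igkc spanned 2.06-fold and that to the summed kappa V segments 2.1-fold. The other ratios were wider. That to the summed markers of pro-B and pre-B cells ran from 2.66 to 28.1, a 10.6-fold span, that to Ighm spanned 10.4-fold and that to Igha 9.74-fold. Without labelled double-deficient replicate 2, which had the highest ratio to the early markers and to Ighm, these 3 spans were 5.43-fold, 5.4-fold and 9.74-fold, beside the 5.18-fold span that total Ighv then had, and the ratio to Jchain still spanned 2.02-fold. Dntt, at 0.327 CPM in labelled double-deficient replicate 2 and 10.9 to 148 elsewhere, was a large part of the summed early markers. The ratio to that sum therefore does not describe each marker. The points share library and depth, and the ratios are a description.

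**Figure D5:**
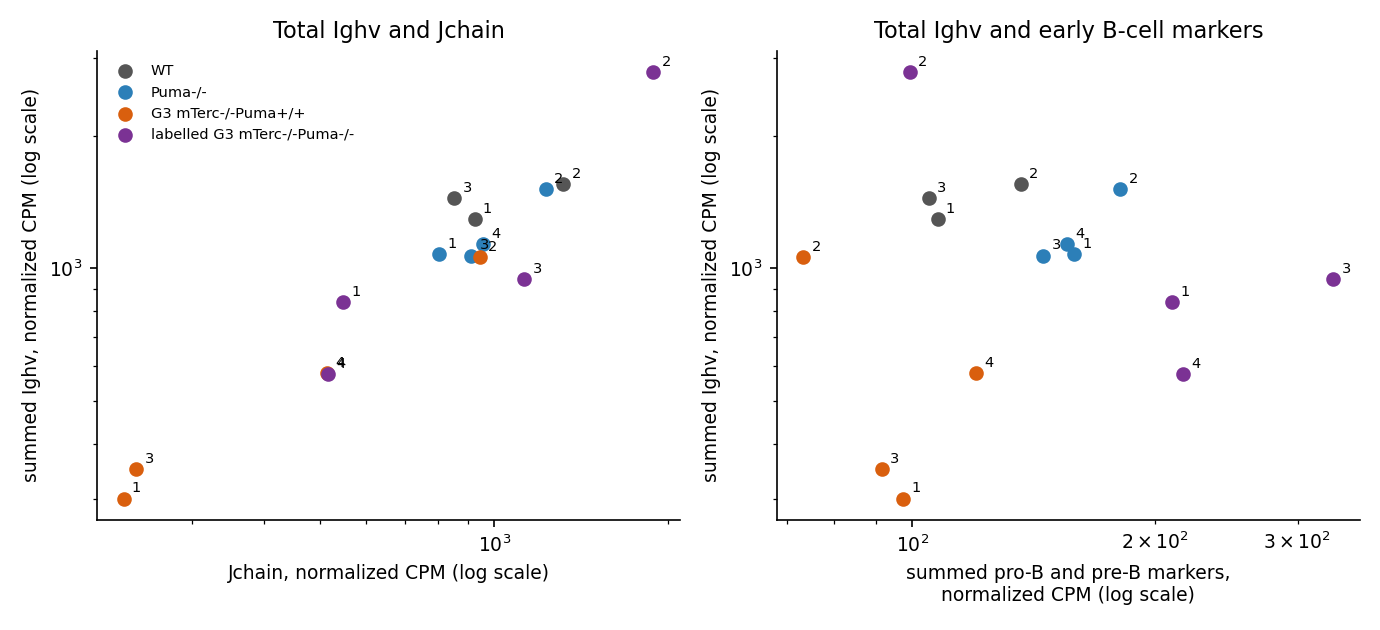
Summed Ighv against Jchain (left) and against the summed pro-B and pre-B cell markers (right), both in normalized CPM on log axes. Points are libraries coloured by genotype and numbered by replicate. The points lie along a band on the left, where the ratio spans 2.02-fold, and scatter on the right, where it spans 10.6-fold (5.43-fold without labelled double-deficient replicate 2). The single gene Dntt is a large part of the sum on the right.

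Of the 14 plasma cell markers 0 were called in any comparison by edgeR with all libraries, where 0.0209% to 0.308% of all genes were called. For a list of this size 0 calls at that share is no result about the markers. Unadjusted, 5 were lower and 0 higher in G3 Puma+/+ against WT, and 7 were higher and 0 lower in the labelled double-deficient against the G3 Puma+/+ libraries, where 2.48% and 10.2% of all genes passed (medians -0.70 and 0.90). Without replicate 2 the latter count was 2 higher and 0 lower, with a median of 0.36, where 6.22% of all genes passed. In G3 Puma+/+ against Puma-/- 6 were lower and 1 higher, with a median of -0.78, against 12.6% of all genes. There the 17 pro-B and pre-B cell markers had a median of -0.51 (0 above 0, 6 lower unadjusted). The 6 plasmacytoid dendritic cell markers had -0.58 (0 above 0, 1 lower) and the 8 stem and progenitor markers -0.45 (1 above 0, 3 lower). T cell, NK cell, myeloid and erythroid medians were 0.02, -0.08, 0.10 and 0.33, with 0 unadjusted. In these lists edgeR called 0, and their part was not tested. Sdc1, the surface proteoglycan CD138, was at 18.0, 22.3 and 13.0 CPM in WT, at 23.8, 24.0, 17.3 and 20.7 in Puma-/-, at 9.29, 12.5, 7.41 and 12.4 in G3 Puma+/+ and at 19.5, 29.9, 26.1 and 17.7 in the labelled double-deficient libraries. G3 Puma+/+ libraries were below all others for this gene, and the change against Puma-/- was -1.05 on the log2 scale (SE 0.218, adjusted p = 0.0828). In the fit without labelled double-deficient replicate 2, an alternative chosen after seeing the data, 12 listed B lineage genes were called in G3 Puma+/+ against Puma-/- in place of 3, while the calls over all genes went from 24 to 152. All 3 were among them, and Sdc1, Igkc, Blnk, Blk, Iglc2, Iglc4 and 3 kappa V segments (Igkv9-120, Igkv4-55 and Igkv5-39) were added. No Ighv segment was among the genes called in that fit, where 28 segments passed unadjusted (27.2% against 17.1% of all genes).

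edgeR called 2 of the 10 listed mature B cell genes, Fcmr and Ms4a1, in G3 Puma+/+ against Puma-/-, both lower. Of all genes, 0.125% were called in that comparison. Fcmr, the Fc receptor for IgM on B cells, was at 1.67, 2.11 and 1.29 CPM in WT, at 3.8, 3.01, 4.19 and 4.72 in Puma-/-, at 0.456, 0.354, 0.351 and 0.701 in G3 Puma+/+ and at 1.82, 1.82, 1.23 and 1.37 in the labelled double-deficient libraries. It fell by 3.08 on the log2 scale in G3 Puma+/+ against Puma-/- (SE 0.269, adjusted p = 5.89e-05, edgeR), a call kept on leaving out each of the 15 libraries in turn. Ms4a1, which encodes CD20, was at 2.42, 2.13, 2.51 and 2.84 CPM in Puma-/- and at 0.36, 0.305, 0.41 and 0.542 in G3 Puma+/+ libraries. Its fall of 2.61 (SE 0.342, adjusted p = 0.00388) was also kept in all 15 such fits. The mean of Ms4a1 was 1.19 CPM in WT, between 2.47 in Puma-/- and 0.404 in G3 Puma+/+ libraries. Against WT its change in G3 Puma+/+ was -1.56 (adjusted p = 0.752, edgeR). In Puma-/- against WT all 10 listed genes lay above 0, with a median of 0.68. There 0 were called and 4 were higher unadjusted, where 6.1% of all genes passed. Against WT, Fcmr fell by 1.86 in the G3 Puma+/+ libraries (adjusted p = 0.0371), kept in 2 of the 15 fits with adjusted p up to 0.245. The median over the 10 genes was nearer to 0, at -1.02 against Puma-/- (6 lower unadjusted, where 12.6% of all genes passed), -0.25 against WT (2 lower unadjusted, 2.48%) and 0.28 in the labelled double-deficient against the G3 Puma+/+ libraries (4 higher unadjusted, 10.2%, and 0.26 with 3 higher without replicate 2, 6.22%).

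In the labelled double-deficient against the G3 Puma+/+ libraries, Blnk, an adaptor of the pre-B cell receptor, rose by 1.63 (SE 0.253, adjusted p = 0.0472). It was at 5.11, 4.07, 2.77 and 5.45 CPM in G3 Puma+/+ and at 12.7, 8.62, 18.8 and 13.6 in the labelled double-deficient libraries, ranges that did not overlap. In the same comparison, Fcmr rose by 1.74 (SE 0.258, adjusted p = 0.042) and Cecr2, a chromatin factor listed here among pre-B cell markers, by 2.81 (SE 0.429, adjusted p = 0.0472). On leaving out each of the 15 libraries these calls held in 1, 2 and 3 fits, with adjusted p up to 0.211, 0.211 and 0.222. Without replicate 2 all 3 were called, at adjusted p of 0.0128, 0.0469 and 0.0469 in the same order. Against the Puma-/- libraries, Fcmr fell by 1.33 (adjusted p = 0.0346, and 0.0476 without replicate 2) and Cecr2 rose by 2.24 (adjusted p = 0.0345, and 0.0634 without replicate 2). These calls held in 7 and 5 of 15 fits, 1 without each library, with adjusted p up to 0.138 and 0.163.

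Against G3 Puma+/+, the 17 pro-B and pre-B cell markers had a median of 1.83 on the log2 scale in the labelled double-deficient libraries, with 17 of 17 above 0, 14 at an unadjusted p under 0.05 and 2 called, where 10.2% of all genes passed unadjusted and 0.0313% were called. Without replicate 2 the median was 1.91 with 5 called (0.0738% of all genes). Markers of several other cell types were above 0 there as well. The 4 erythroid markers had a median of 2.99 (1.17 without replicate 2) with 4 of 4 above 0, the 8 T cell markers 0.69 (0.64) with 8 of 8, the 6 plasmacytoid dendritic cell markers 0.76 (1.07) with 5 of 6, and the 6 myeloid markers 0.48 (0.36) with 5 of 6. The 4 NK cell markers had a median of -0.02 (0.03) with 2 of 4 above 0, and the 8 stem and progenitor markers -0.07 (-0.04) with 3 of 8. edgeR called 0 of these, with 4 erythroid, 3 T cell, 2 plasmacytoid dendritic cell and 1 myeloid marker at an unadjusted p under 0.05, and called 1, Ly6d, of the plasmacytoid dendritic cell list, without replicate 2. The part of these cells in the result was not tested. The pro-B and pre-B cell markers summed to 104.8 to 136.1 CPM in WT, 145.2 to 181 in Puma-/-, 73.3 to 119.9 in G3 Puma+/+ and 99.2 to 332.2 in the labelled double-deficient libraries, of which replicate 2 was the lowest. The total Ighv level was highest in that same replicate, so the order of the labelled double-deficient libraries by total Ighv and by summed early B cell markers differed. Dntt alone was a large part of these sums, at a mean of 87.8 CPM in the labelled double-deficient and 31.2 in the G3 Puma+/+ libraries. It was at 0.327 CPM in labelled double-deficient replicate 2, so the sums do not describe each marker. Igll1, the lambda5 part of the surrogate light chain that pairs with a new heavy chain, was at 4.12, 0.981, 16.3 and 4.91 CPM in the labelled double-deficient libraries. The surrogate light chain genes (4 of 4) had a median of 2.43 (2.75 without replicate 2) against G3 Puma+/+, with 0 called in edgeR and 4 at an unadjusted p under 0.05, and 1, Igll1, called without replicate 2.

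The genes whose products join and open the locus were read next. Of 13 V(D)J recombination genes and 11 locus contraction and accessibility factors, 0 were called in any of the 6 comparisons in edgeR, where 0.0209% to 0.308% of all genes were called, so that 0 in lists of this size is no result about them. At an unadjusted p under 0.05 at most 2 and 3 were higher and 0 and 2 lower, where 2.48% to 12.6% of all genes passed. Their median log2 fold changes lay between 0.01 and 0.15 and between -0.12 and 0.00. Without labelled double-deficient replicate 2, 0 were called in either list. Unadjusted, at most 3 and 3 were then higher and 1 and 2 lower, where 3.86% to 17.1% of all genes passed. The medians in that fit lay between 0.01 and 0.12 and between -0.09 and 0.12. Dntt was at 103.3, 0.327, 148.2 and 99.4 CPM in the labelled double-deficient libraries, and Rag1, the nuclease that cuts at V segments, was at 2.53, 0, 7.79 and 2.49. The level of Ptprc, the pan-leukocyte gene CD45, ran from 254.1 to 378.5 CPM over all libraries. Markers of mature B cells summed to 204.2 to 241 CPM in WT, 245.2 to 293.1 in Puma-/-, 205.5 to 235.9 in G3 Puma+/+ and 221.1 to 268.7 in the labelled double-deficient libraries over 10 genes, none at 0, so the G3 Puma+/+ sums lay within the WT range. Fcmr and Ms4a1, at means of 1.69 and 1.19 CPM in WT, add little to these sums. Both were lower in every G3 Puma+/+ than in every WT library, so the sums do not describe each marker. The plasma cell markers summed to 1751 to 2341 CPM in WT, 1666 to 2102 in Puma-/-, 1046 to 1988 in G3 Puma+/+ and 1401 to 2934 in the labelled double-deficient libraries, again with none at 0. Transcripts of B lineage and plasma cells were thus present in these lineage-depleted samples, and their part in the Ighv differences was not tested.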

How the data were processed

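Secondary recipients supplied lineage-depleted marrow, whose RNA was sequenced in 15 libraries (polyadenylated RNA, TruSeq Stranded mRNA kit). The authors deposited raw counts per gene for each library, made per the labels and the submitters' processing notes with Trimmomatic 0.38 and STAR 2.5.2b on mm10. The annotation release and the strand counted are not given in the sources used here. Ensembl identifiers were matched to GENCODE vM21, which named 45143 of 45706 genes. Reads that match several segments equally can be lost or misplaced in such counts.

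Groups came from the labels. Genes were filtered with filterByExpr, scaled by TMM and tested with edgeR 4.0.16 (glmQLFit and glmQLFTest, all 15 libraries, no covariates) in R 4.3.3, with Benjamini-Hochberg adjustment over 19146 genes and a threshold of 0.05. SE is the standard error of a log2 fold change. DESeq2 1.42.0 and limma-voom (limma 3.58.1) were alternatives, as were other filters and scaling, a replicate block and leaving out each library. Gene lists were counted with edgeR alone, and 1 listed gene is not reported here. Single genes were compared with exact two-sided permutation tests, 258 in all. The code was tested on simulated data.

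The members and lists were chosen with earlier results of these data known. All 15 libraries were kept, including labelled double-deficient replicate 2. The text names the 10 segments of highest mean over the 4 genotypes, the segments leading a library, and the 3 of smallest p in each comparison of the labelled double-deficient libraries with Puma-/- or G3 Puma+/+. Segments that DESeq2 called or that stood out by their spread were named after their values were seen. Sequences and coordinates are from GENCODE vM21 (GRCm38). Depth was 102790519 to 158367059 counts a library, and 3 counts of 0.0189 to 0.0292 CPM were taken as the floor. Replicates differed by more than sampling noise (chi-square per gene 38.3 to 706). Libraries sharing a replicate number deviated together at r > 0.1 in 5 of 21 pairs. Pairs of unlike number were not set beside these, so a pairing by number was not settled, and the main fit assumed none.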

Additional observations from a re-analysis of the deposited data

Results flagged for a closer look

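In groups of 4 libraries, 1 library lay far from the other 3 for 21 of 111 combinations of measure and group by Dixon's test at the 95% level. Chance gives about 1 in 20, or 5.55, for normally distributed measures not chosen by their values. Whether these levels are so distributed was not tested. Many of the segments were named because they led a library or had a small p, so the count is a description. WT, with 3 libraries, was not tested. The total Ighv level was 1513 CPM in Puma-/- replicate 2 (1069 to 1137 in the others of its group) and 2789 in labelled double-deficient replicate 2 (577 to 947). That labelled double-deficient replicate also stood out for Ighv7-1 at 221 CPM (7.41 to 27.7), Ighv1-53 at 138 (4.46 to 23.1), Ighv6-3 at 195 (10.8 to 24.7), Ighv1-66 at 9.3 (0.502 to 0.819) and Ighv7-3 at 50.1 (3.79 to 9.19). Labelled double-deficient replicate 3 was low for Ighv1-55, at 3.41 CPM (30.2 to 35.5).

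In the Puma-/- group, replicate 1 was high for Ighv8-8 at 186 CPM (7.53 to 24.3), Ighv8-5 at 20 (2.47 to 2.66) and Cecr2 at 1.08 (0.471 to 0.573). Replicate 2 was high for Ighv1-55 at 60.6 CPM (12.8 to 17.9) and Dntt at 84.6 (52.5 to 57.2), replicate 3 for Ighv6-3 at 43.4 (12.8 to 13.7), and replicate 4 for Ighv1-66 at 28.3 (0.747 to 1.23) and Ighv1-4 at 109 (4.38 to 18.9). In the G3 Puma+/+ group, replicate 2 was high for Ighv1-55 at 194 CPM (5.47 to 10.4) and Ighv1-81 at 40.4 (1 to 7.01), replicate 3 for Ighv7-3 at 35 (1.97 to 5.39) and replicate 4 for Ighv1-15 at 181 (0.611 to 2.21). Ighm was at 4767 CPM in labelled double-deficient replicate 1 (1222 to 1532).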

How the results depend on the processing

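edgeR called 0 Ighv segments in all 6 comparisons. DESeq2 called 1 in G3 Puma+/+ against WT, 1 (Ighv1-4) and 3 in the labelled double-deficient libraries against Puma-/- and WT, and 7 in G3 Puma+/+ against Puma-/-, where it called 0.131%, 1.35%, 1.15% and 2.39% of all genes with an adjusted p. Leaving out single libraries gave 0 to 1 in both labelled double-deficient comparisons with Puma-/- and WT, the 1 being Ighv3-5 without labelled double-deficient replicate 4, and 0 in the others. Without labelled double-deficient replicate 2, a setting added after seeing the data for the genes listed, 2 of these were called in place of 1 in G3 Puma+/+ against WT, 12 in place of 3 against Puma-/-, and 7 in place of 3 in the labelled double-deficient against the G3 Puma+/+ libraries (Ly6d, listed for plasmacytoid dendritic cells, among the 7). Calls over all genes went from 4 to 7, from 24 to 152 and from 6 to 14 in the same order. In the labelled double-deficient against the Puma-/- libraries 2 listed genes were called in both fits, with Igll1 in place of Cecr2. There the calls over all genes went from 59 to 58. The WT median of the total was 1291 CPM when the leading segment of each library was left out. The replicate block called 0 segments in each comparison. Of these counts 0 reversed. The edgeR median over segments changed sign in 3 comparisons, from 0.19 to -0.13 in Puma-/- against WT without Puma-/- replicate 2, and without labelled double-deficient replicate 2 from 0.02 to -1.20 against Puma-/- and from 0.13 to -1.06 against WT. By limma-voom the latter were -0.56 and -0.54, and with the replicate block -0.37 and -0.40. The median was also below 0 against Puma-/- without Puma-/- replicate 1 (-0.14) or 3 (-0.16) and against WT without WT replicate 2 (-0.03). The cause of these changes was not tested. Of 135 fits that left out a library for the 9 single gene calls, 81 lost the call. Depth limits values near the floor of 3 counts, at most 0.0292 CPM.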
